A study of Homo sapiens with 4 samples.

Results

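The epidermal differentiation complex is a block of neighbouring genes on human chromosome 1 (band 1q21). It was examined as 79 accessible regions out of 58127 measured by ATAC-seq, a method in which a transposase inserts sequencing adapters into open DNA. A region belonged to the complex when it lay on chromosome 1 and its gene symbol began with S100A, SPRR, LCE or FLG, or was IVL, LOR, CRNN, HRNR, RPTN, TCHH, TCHHL1, KPRP, SMCP, PGLYRP3 or PGLYRP4. These regions were assigned to 32 of the 68 RefSeq genes that the same symbols pick out on the chromosome, 59 of which are protein-coding. All libraries came from MCF10A cells, a long-established human line of non-tumorigenic breast epithelium. The labels name 2 libraries (A and B) with a short hairpin against SNHG8d, a form of the long non-coding RNA SNHG8 (shG8d), and 2 libraries (A and B) with a control hairpin (shNC). By its title the study asks how SNHG8d and histone H1 bear on chromatin condensation and on the differentiation of epithelia, and the complex is the main gene cluster of squamous differentiation.

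The complex encodes proteins that keratinocytes build into the cornified envelope, the cross-linked shell of the outermost skin cells. Involucrin, the small proline-rich proteins (SPRR), loricrin and the late cornified envelope proteins (LCE) are substrates that transglutaminases cross-link. The fused-type S100 proteins, such as filaggrin and hornerin, join an S100-like calcium-binding end to long repeats, and the S100 proteins are small calcium-binding proteins, several of which are also made outside the skin. The cluster is known to be packed into closed chromatin where it is silent and to open as keratinocytes differentiate, with AP-1 factors acting at promoters such as that of involucrin.

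The group labels of the table contradict each other between its parts, and the complex holds regions of all of them. The value of 1 read identifies a library, and by it the pair of libraries labelled shG8d in the 33913 common regions is the pair labelled shNC in the 21459 shNC-specific and 2755 shG8d-specific regions. This deeper pair held 8124488 and 8111839 reads in all regions, and the shallower pair, which carries the opposite label in each part, held 4457248 and 4344212. Differences are given as deeper minus shallower pair with the label of the deeper pair beside them, without saying which way the knockdown moved them. Depth and hairpin cannot be told apart, since each pair is 1 hairpin and 1 depth. The labels do not tell whether A and B are separate cultures. The p-values therefore cover the spread among these libraries, and that spread may be technical. Values in bulk cells also cannot tell fewer cells with an open region from less opening in each cell. How the specific regions were chosen is not given in the sources used here, so tests within them may not be independent of that choice.

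Promoter regions marked 11 of 12 mammary epithelial marker genes (all but TP63), against 1 of 7 fibroblast, 1 of 6 leukocyte, 0 of 5 endothelial and 2 of 5 melanocyte markers. The summed levels of the epithelial markers were 1478 and 1304 normalized counts in deeper A and B, against 1023 and 1049 in shallower A and B. PDGFRA, the fibroblast marker with a region, had 15 and 23 normalized counts in deeper A and B, against 60 and 50 in shallower A and B. CD14, the leukocyte marker, had 88 and 96 in deeper A and B, against 159 and 182 in shallower A and B. The 2 melanocyte markers, MITF and DCT, summed to 213 and 250 in deeper A and B, against 186 and 193 in shallower A and B. As means of the 4 libraries, the median level was 97.4 over the epithelial markers and 105 over the melanocyte ones. CD14 was at 131 and PDGFRA at 37.3, so the level of a region did not set the epithelial markers apart. The part of these markers in the results below was not tested.

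The 79 regions comprised 39 common, 38 shNC-specific and 2 shG8d-specific regions. The S100 genes held 39 of them at 12 of 20 genes, the SPRR genes with involucrin held 13 at 7 of 14 genes, and the fused-type S100 genes held 13 at 5 of 7 genes. The LCE genes held 6 regions at 5 of 23 genes, and KPRP, SMCP and PGLYRP3 held 8. Loricrin, FLG, SPRR3, S100A4 and others, 36 genes in all, had no region assigned to them. A region was assigned to 1 gene only, by its nearest start site, so this count says nothing of regions between 2 genes. S100A10 had the most regions, 8, followed by S100A6 with 7 and by RPTN and KPRP with 5 each.

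Regions of the complex lay near genes but mostly outside them. Intergenic regions made up 45 of the 79 (57.0%, against 37.3% of all regions), promoters 20 (25.3% against 16.5%) and introns 6 (7.59% against 39.8%). A transcription start site (TSS) lay within 1 kb of 22 regions (27.8% against 22.4%) and between 1 and 10 kb from 37 regions (46.8% against 17.5%). These 22 regions are called promoter regions here. They belonged to 19 genes, of which 11 were S100 genes, and none of them belonged to a fused-type S100 gene.

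Levels followed the region set and the gene group. Among common regions the median of the S100 genes was 108 and 111 normalized counts in deeper A and B, against 117 and 115 in shallower A and B. For the SPRR genes and involucrin it was 129 and 117 in deeper A and B, against 120 and 128 in shallower A and B. Both groups were above the fused-type S100 genes (52.2 and 34.7 against 42.3 and 50.4) and the LCE genes (50.5 and 45.2 against 54.4 and 53.9) in each of the 4 libraries, and the median of all common regions of the series was 77.4 and 77.5 in deeper A and B, against 82.1 and 82.0 in shallower A and B. Among shNC-specific regions the S100 median was 69.8 and 71.0 in deeper A and B, against 74.9 and 52.7 in shallower A and B. There the SPRR genes with involucrin (26.9 and 31.1 against 27.2 and 29.3) lay below the S100 genes in every library, as did the fused-type and LCE groups. These are medians over 3 to 21 regions and were not tested. Normalized counts are not divided by region length, so these levels also carry the width of the regions.

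**Figure D1:**
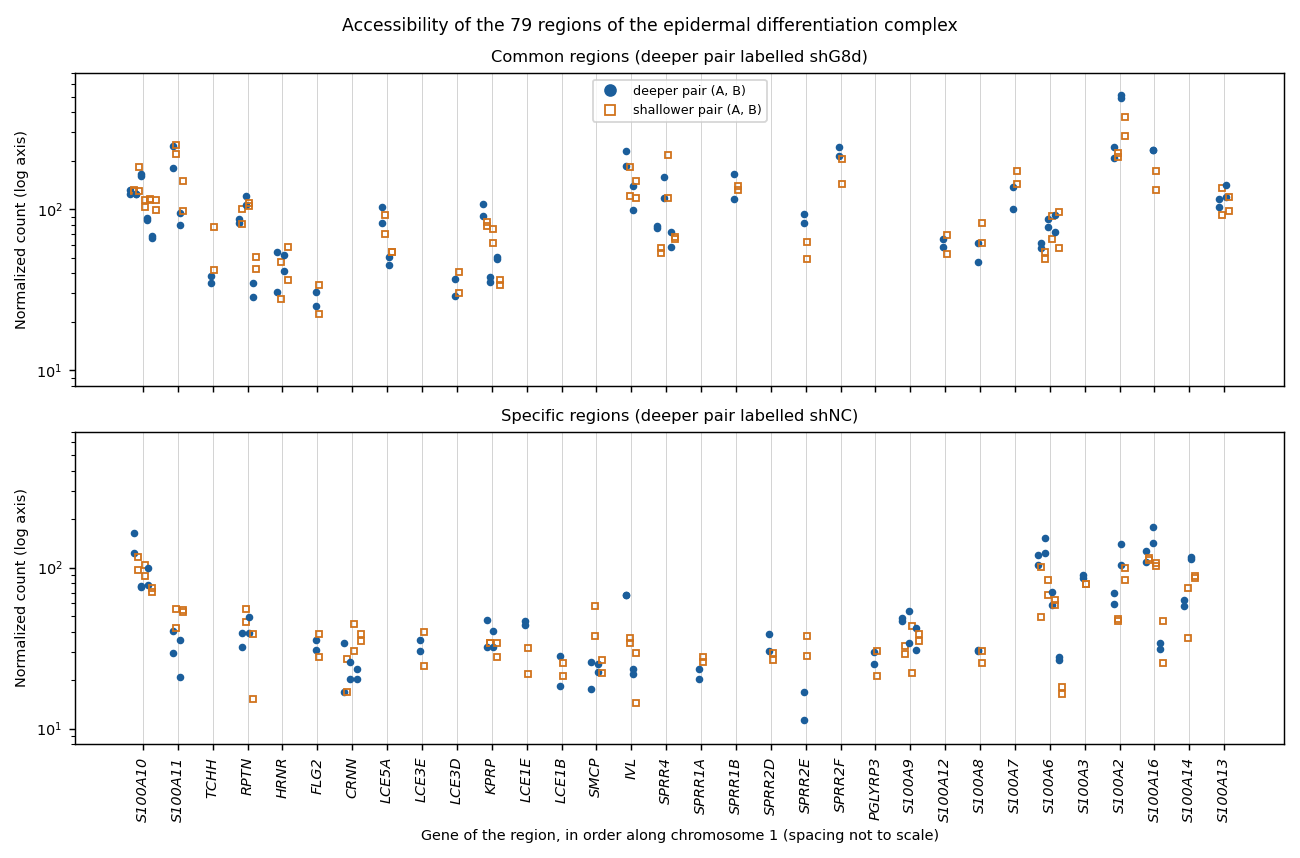
Normalized counts (log axis) of the 79 regions in each library, by gene in the order of the genes along chromosome 1, with common regions above and specific regions below. Filled points are the 2 libraries of the deeper pair and open squares the 2 of the shallower pair; the highest region is at the S100A2 promoter (511 and 490 in deeper A and B), and most LCE, CRNN and FLG2 regions lie well below it.

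The promoters of the complex also differed in sequence, which is shown here for 5 genes with a region at their start. The 250 bases before the start are from the RefSeq promoter table (GRCh38.p14; the files use hg19, so the coordinates are not those of the regions), 5′ to 3′ on the gene's strand, with matches to the AP-1 motif (TGANTCA), the TATA box (TATAAA) and the GC box (GGGCGG) in capitals. IVL has an AP-1 match that begins 123 bases upstream of the start and a TATA box at 30, and SPRR1A has an AP-1 match at 108 and a TATA box at 29. LCE1E has a TATA box match at 220 bases, much further from the start than those of IVL and SPRR1A, and no AP-1 match. S100A11 has a GC box at 68 bases, and S100A6 has GC boxes at 90, 79 and 75, the last 2 of which overlap; neither has an AP-1 or a TATA box match.
IVL (chr1:152908296-152908545, plus strand): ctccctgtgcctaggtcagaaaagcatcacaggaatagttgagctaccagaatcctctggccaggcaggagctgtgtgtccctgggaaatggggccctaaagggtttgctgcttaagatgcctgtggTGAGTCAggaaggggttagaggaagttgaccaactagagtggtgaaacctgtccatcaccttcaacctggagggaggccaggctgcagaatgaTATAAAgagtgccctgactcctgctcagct
SPRR1A (chr1:152983831-152984080, plus strand): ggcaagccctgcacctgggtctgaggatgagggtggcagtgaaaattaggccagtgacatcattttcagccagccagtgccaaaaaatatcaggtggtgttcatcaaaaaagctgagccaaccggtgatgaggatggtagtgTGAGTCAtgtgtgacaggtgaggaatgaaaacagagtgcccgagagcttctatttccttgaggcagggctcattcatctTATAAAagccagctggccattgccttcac
LCE1E (chr1:152786007-152786256, plus strand): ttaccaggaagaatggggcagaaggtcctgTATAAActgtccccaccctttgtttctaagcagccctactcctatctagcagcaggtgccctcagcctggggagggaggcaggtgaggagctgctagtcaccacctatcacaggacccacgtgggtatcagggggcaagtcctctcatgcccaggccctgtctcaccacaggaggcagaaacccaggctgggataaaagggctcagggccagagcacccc
S100A11 (chr1:152037005-152037254, minus strand): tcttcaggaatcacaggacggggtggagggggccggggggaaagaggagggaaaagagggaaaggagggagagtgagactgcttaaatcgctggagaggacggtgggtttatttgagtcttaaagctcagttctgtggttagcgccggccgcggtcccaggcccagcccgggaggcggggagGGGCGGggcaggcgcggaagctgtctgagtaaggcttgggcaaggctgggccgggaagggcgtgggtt
S100A6 (chr1:153535992-153536241, minus strand): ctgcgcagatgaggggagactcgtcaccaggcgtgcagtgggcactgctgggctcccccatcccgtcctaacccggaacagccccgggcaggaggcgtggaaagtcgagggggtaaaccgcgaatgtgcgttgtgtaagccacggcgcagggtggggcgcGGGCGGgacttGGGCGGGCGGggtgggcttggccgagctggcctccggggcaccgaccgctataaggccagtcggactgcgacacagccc

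Matches were counted on both strands over 250 bases before and 50 after the start, in 64 promoters of 56 genes of the complex, and in all 35116 promoters of the table. Only exact matches to a motif were counted, wherever they lay in the window. AP-1 matches were in 18 of the 64 promoters (28.1%), against 7.71% of all promoters, and TATA box matches in 32 (50%), against 11.5%. GC boxes were in 10 (15.6%), against 45.0%. The groups were unlike: AP-1 matches were in 8 of 11 promoters of the SPRR genes, involucrin and loricrin, and in 6 of 7 fused-type S100 promoters. They were in 4 of 23 S100 promoters and 0 of 19 LCE promoters. GC boxes were in 7 of 23 S100 promoters (30.4%, below the share of all promoters), 1 of 19 LCE promoters and none of the SPRR and fused-type promoters. TATA box matches were in 8 of 23 S100 promoters (34.8%, above the share of all promoters). They were in 9 of 11 promoters of the SPRR genes, involucrin and loricrin, 5 of 7 fused-type and 9 of 19 LCE promoters. The 2 S100 promoters printed above, with a GC box and no TATA box match, therefore do not stand for their group. Of 3 further motifs, the TEAD motif (CATTCC) was in 25% of promoters of the complex against 14.0% of all, the Grainyhead motif (AACCNGTT) in 6.25% against 1.73%, and the CCAAT box (CCAAT) in 20.3% against 34.6%. A match is a string of letters in a window and does not show that a factor binds there.

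**Figure D2:**
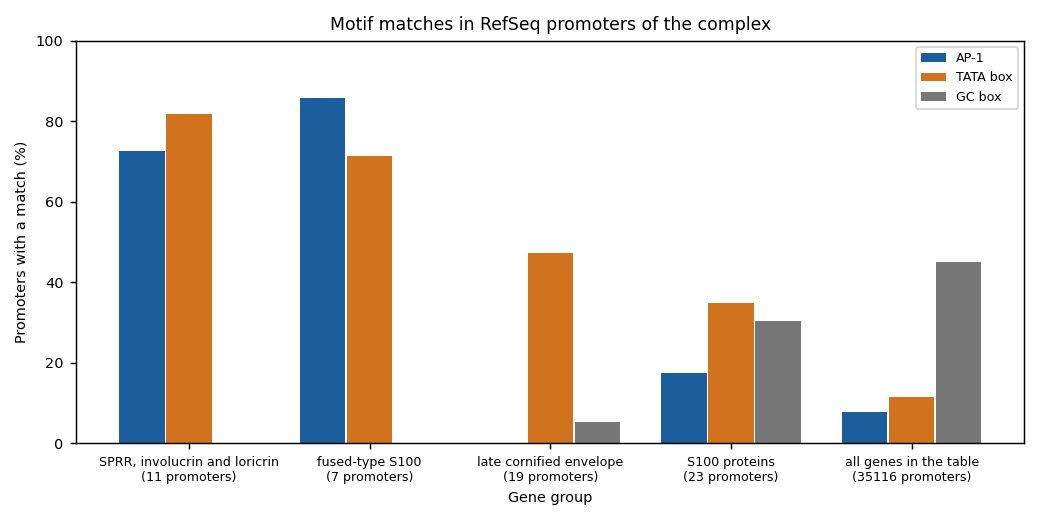
Share of RefSeq promoters (%) with a match to the AP-1, TATA box or GC box motif in 4 gene groups of the complex and in all 35116 promoters of the table. AP-1 bars stand highest in the SPRR and fused-type S100 groups and are at 0 in the LCE group, while GC box bars are highest over all promoters.

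Accessibility of the complex differed between the pairs at 11 of its 79 regions (13.9%), against 23.6% of all regions (limma, adjusted p under 0.05). The 11 lay at 9 genes. In the deeper pair, 6 were higher, at S100A2, S100A6, S100A10, S100A16 (2 regions) and IVL, and 5 were lower, at S100A10, S100A11, KPRP, SMCP and SPRR2E. Of the 39 common regions, in which shG8d is the label of the deeper pair, 3 were higher (10.7% of all common regions were) and 2 were lower (15.0%). Of the 38 shNC-specific regions, in which its label is shNC, 3 were higher (13.2%) and 1 was lower (0.979%). Both shG8d-specific regions, in which its label is shNC too, were lower (70.0% of that set) and neither was higher (0.0363%).

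Few of the differences were large. A difference of at least 2-fold was found at 2 regions of the complex (2.53%), against 12.3% of all regions. The values of the pairs did not overlap at 44 of the 79 regions (55.7%), against 63.4% of all regions. The median log2 difference was 0.02 over the common regions of the complex, against −0.12 over all common regions, and 0.15 over its shNC-specific regions, against 0.24 over all of that set. In the authors' deposited table, 11 regions of the complex had an unadjusted p under 0.05 (13.9%, against 24.2% of all regions), and they were the same 11.

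**Figure D3:**
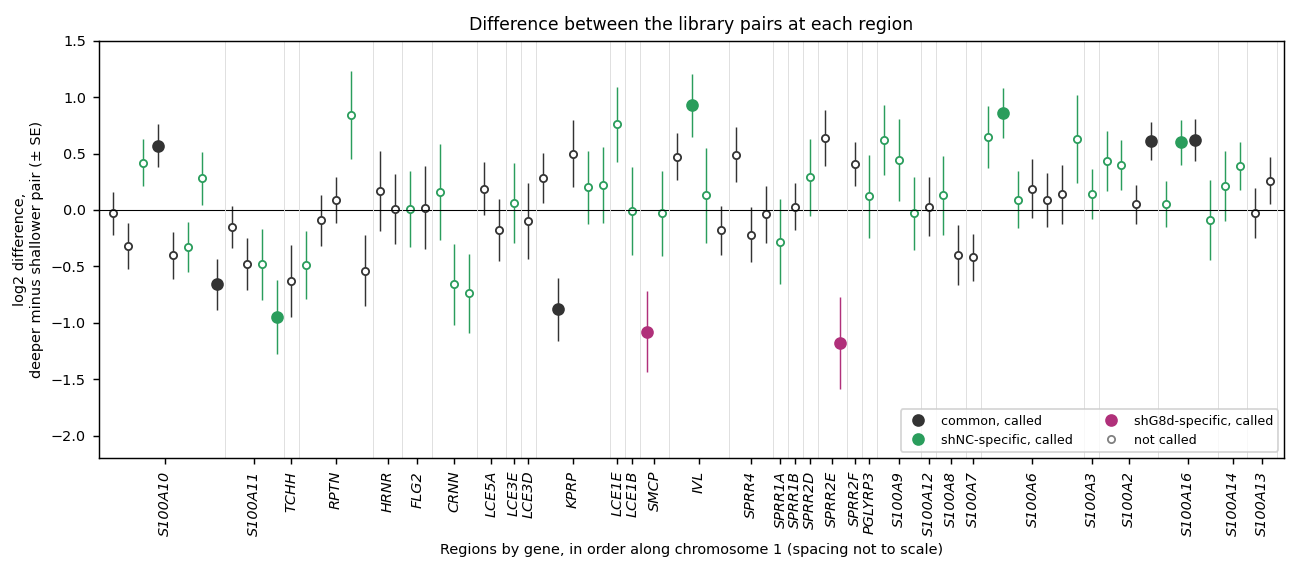
Log2 difference of each of the 79 regions, deeper minus shallower pair, with the standard error from limma, by gene in order along chromosome 1. Large filled points are the 11 regions with an adjusted p under 0.05, coloured by region set; they lie between −1.18 at SPRR2E and 0.93 at IVL, and the other 68 regions are open points.

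The balance of higher and lower calls depended on the scaling. With every library set to the same total, the median over all regions moved to −0.36 and that over the complex to −0.26. None of the 6 regions kept a higher call (adjusted p between 0.0865 and 0.429 in limma), and 16 regions of the complex were then lower, the 5 above among them. Of all regions, 4.44% were then higher and 28.1% lower. The totals include regions of very many reads, up to 373100 in 1 library. On the authors' scaling the library medians over all regions were already near each other, at 54.7 and 54.9 in deeper A and B, against 58.0 and 57.4 in shallower A and B. The part of the largest regions in the shift was not tested. The signs of the 11 regions did not change. No region of the 11 kept its call in every fit that left out 1 library. Such a fit rests on 1 library in 1 pair. Calls fell without either deeper library over all regions of the series too, so this is not particular to the complex.

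The share of a library's reads that fell in the complex was lower in the deeper pair, while its summed normalized counts over common and over shNC-specific regions were higher in that pair. In common regions reads of the complex made up 0.0937% (95% Wilson interval 0.0912 to 0.0963) and 0.0964% (0.0939 to 0.0990) of reads in deeper A and B, against 0.107% (0.103 to 0.110) and 0.106% (0.102 to 0.109) in shallower A and B. In shNC-specific regions they were 0.118% and 0.132% in deeper A and B, against 0.167% and 0.176% in shallower A and B. The shares held by the 2 shG8d-specific regions were 0.00896% and 0.0106% in deeper A and B, against 0.0264% and 0.0327% in shallower A and B. The pairs did not overlap in any set. The largest shG8d-specific region of the series held 373100 reads in 1 library, where deeper A and B had 457423 and 433036 reads in that whole set. The largest shNC-specific region held 335075 in 1 library, where deeper A and B had 2159771 and 2108191 in that set. How far such regions set the shares was not tested. Summed normalized counts, on the authors' scaling, were 4342 and 4334 in deeper A and B, against 4199 and 4027 in shallower A and B, over common regions, and 2143 and 2243 against 1947 and 1787 over shNC-specific regions, so the order of the pairs turned with the scaling. The intervals cover counting error only, and an exact permutation test between 2 libraries and 2 cannot go below a two-sided p of 0.333.

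S100A2, an S100 protein of basal epithelial cells, had the most open region of the complex. Its promoter region, 444 bases upstream of the TSS and in the common set, had 511 and 490 normalized counts in deeper A and B (labelled shG8d), against 376 and 286 in shallower A and B. Both deeper libraries were above both shallower ones, with a log2 difference of 0.61, an SE of 0.168 and a limma adjusted p of 0.0141. The difference lay between 0.41 and 0.81 with 1 library left out, and the adjusted p was 0.168 without deeper A and 0.108 without deeper B. The other 3 regions of S100A2 lay 2105, 2855 and 6856 bases upstream and had log2 differences of 0.05, 0.40 and 0.43, none of which passed.

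S100A16, an S100 protein of many epithelia, had 2 called regions at its start. The region 177 bases inside the gene, in the 5′ UTR and common, had 232 and 235 normalized counts in deeper A and B (labelled shG8d), against 173 and 132 in shallower A and B. Its log2 difference was 0.62 (SE 0.185, limma adjusted p = 0.0206). The region 18 bases upstream, which is shNC-specific, had 178 and 143 normalized counts in deeper A and B (labelled shNC), against 103 and 107 in shallower A and B, a log2 difference of 0.60 with an SE of 0.199 and a limma adjusted p of 0.0348. Both regions lay within 1 kb of an S100A16 start and both were higher in the deeper pair, yet the label of that pair is shG8d in one and shNC in the other. Without deeper A or deeper B neither passed, with adjusted p of 0.159 and 0.154 for the first and 0.390 and 0.0880 for the second, and the first had 0.0543 without shallower B. In a fit within the specific sets together the second had a limma adjusted p of 0.125. The other regions of S100A16, at 1812 bases upstream and 12051 bases downstream of the TSS, had log2 differences of 0.05 and −0.09.

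S100A6, or calcyclin, is an S100 protein of proliferating and epithelial cells. Its region at the end of the gene, 2294 bases from the TSS and shNC-specific, had the lowest adjusted p of the complex. It had 124 and 153 normalized counts in deeper A and B (labelled shNC), against 83.4 and 68 in shallower A and B, so the pairs did not overlap. The log2 difference was 0.86 (SE 0.218, limma adjusted p = 0.00878). It lay between 0.71 and 1.01 with 1 library left out, and did not pass without deeper B (adjusted p = 0.150). The promoter region of S100A6, 41 bases inside the gene, had 104 and 119 normalized counts in deeper A and B, against 101 and 49.2 in shallower A and B. One shallower library was near the deeper ones there, and the log2 difference of 0.65 (limma adjusted p = 0.0914) did not pass. With the letters A and B as a block it passed, at an adjusted p of 0.0326. It was 1.17 (adjusted p = 3.14e-05) without shallower A and 0.14 (adjusted p = 0.70) without shallower B. The other 5 regions of S100A6 lay between 2878 and 25121 bases downstream, with log2 differences between 0.09 and 0.63.

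S100A10, the partner of annexin A2 at the cell membrane, had 8 regions and calls in both directions. The region in its first intron, 1578 bases from the TSS and common, had 161 and 165 normalized counts in deeper A and B (labelled shG8d), against 115 and 104 in shallower A and B. Its log2 difference was 0.57 (SE 0.192, limma adjusted p = 0.0382). The intergenic region 21221 bases downstream of the TSS, also common, had 68.2 and 66.2 in deeper A and B, against 99.1 and 115 in shallower A and B, a log2 difference of −0.66 with an SE of 0.224 and a limma adjusted p of 0.0391. The same intron also held regions ordered the other way, at 4529 bases (common, 85.8 and 88.0 in deeper A and B, against 114 and 116 in shallower A and B) and at 5512 bases (shNC-specific, 75.7 and 76.7 against 104 and 89.0), with log2 differences of −0.40 and −0.33 that did not pass. Neither of the called regions passed without a deeper library, with limma adjusted p of 0.224 and 0.236 for the intron and 0.185 and 0.197 for the downstream region without A and B in turn, and the downstream region had 0.105 without shallower B. The promoter region, 190 bases inside the gene in the 5′ UTR and shNC-specific, had 124 and 165 in deeper A and B (labelled shNC), against 116 and 97.2 in shallower A and B. Its log2 difference of 0.42 had a limma adjusted p of 0.151. The regions at 7400 and 4756 bases upstream and 17184 bases downstream had log2 differences of −0.03, −0.32 and 0.28.

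S100A11, an annexin A1 partner that is also found in the cornified envelope, had 1 call in 4 regions. The region 7670 bases downstream of the TSS, shNC-specific, had 35.3 and 21 normalized counts in deeper A and B (labelled shNC), against 54.4 and 52.7 in shallower A and B. It was lower in the deeper pair by a log2 difference of −0.95 with an SE of 0.330 and a limma adjusted p of 0.0435, a direction called at 0.979% of its set. With 1 library left out the difference lay between −1.31 and −0.59, with an adjusted p of 0.373 without deeper B, and in a fit within the specific sets the adjusted p was 0.0706. The promoter region of S100A11, 63 bases upstream and common, had 79.9 and 94.4 in deeper A and B (labelled shG8d), against 97.9 and 150 in shallower A and B. Its log2 difference of −0.48 did not pass (limma adjusted p = 0.144). It was −0.78 (adjusted p = 0.00302) without shallower A, −0.17 (adjusted p = 0.653) without shallower B and −0.83 (adjusted p = 0.0128) with equal library totals.

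The promoter regions of the other S100 genes did not pass the test. S100A14, an epithelial S100 protein, had 117 and 113 normalized counts in deeper A and B, against 85.8 and 89.0 in shallower A and B at 132 bases upstream, where the pairs did not overlap. At 918 bases upstream it had 58.1 and 62.9 in deeper A and B, against 74.9 and 36.3 in shallower A and B, which overlapped. S100A13, known for its part in the release of FGF1, had 116 and 104 in deeper A and B, against 135 and 92.6 in shallower A and B at 121 bases upstream, and 141 and 119 against 120 and 97.2 at 156 bases inside. Both S100A13 regions overlapped between the pairs. S100A3, best known from hair, had 86.7 and 89.6 in deeper A and B, against 79.7 and 79.7 in shallower A and B. The log2 differences of these 5 regions lay between −0.03 and 0.39. The deeper pair was labelled shG8d in both S100A13 regions and shNC in the S100A14 and S100A3 regions.

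S100A8 and S100A9 form calprotectin, an antimicrobial protein of neutrophils and inflamed epithelia, and S100A12 is the related calgranulin C. The S100A8 promoter region had 47.1 and 61.3 normalized counts in deeper A and B (labelled shG8d), against 61.6 and 82.0 in shallower A and B, a log2 difference of −0.40 (SE 0.266). The S100A9 promoter region had 53.9 and 33.9 in deeper A and B (labelled shNC), against 43.5 and 22.3 in shallower A and B, a log2 difference of 0.44 (SE 0.364). The S100A12 promoter region had 65.6 and 58.1 in deeper A and B (labelled shG8d), against 68.9 and 52.7 in shallower A and B. None of the 3 passed, though with equal library totals the S100A8 region did (−0.74, limma adjusted p = 0.0431), and their levels were below those of the S100A2, S100A10 and S100A16 promoters in every library. S100A7, psoriasin, had 1 region, 29983 bases upstream, with a log2 difference of −0.42 that did not pass.

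Involucrin (IVL) was the cornified envelope gene with a called promoter. Its promoter region, 89 bases upstream of the TSS and shNC-specific, had 67.3 and 67.8 normalized counts in deeper A and B (labelled shNC), against 33.8 and 36.3 in shallower A and B. The pairs did not overlap, the libraries within each lay close together, and the log2 difference of 0.93 (SE 0.279, limma adjusted p = 0.0220) was the highest of the complex. It lay between 0.88 and 0.98 with 1 library left out, although without deeper A and deeper B the adjusted p was 0.155 and 0.143. Scaled to equal totals the log2 difference was 0.58 (limma adjusted p = 0.126). The region 2269 bases upstream, common and more open, had 186 and 231 in deeper A and B (labelled shG8d), against 121 and 184 in shallower A and B. Its log2 difference of 0.47 did not pass (limma adjusted p = 0.106), and it was 0.17 (adjusted p = 0.482) without shallower A and 0.77 (adjusted p = 0.000568) without shallower B. The regions 15809 and 24025 bases downstream had log2 differences of 0.13 and −0.18.

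The SPRR genes, whose proteins bridge other envelope proteins, had regions mostly away from their starts. The most open, 9668 bases upstream of SPRR2F and common, had 213 and 245 normalized counts in deeper A and B (labelled shG8d), against 205 and 144 in shallower A and B, and its log2 difference of 0.41 did not pass. SPRR2E had 2 regions with differences of opposite sign. The shG8d-specific one, 5175 bases upstream, had 16.8 and 11.3 in deeper A and B (labelled shNC), against 37.5 and 28.1 in shallower A and B, with a log2 difference of −1.18, an SE of 0.406 and a limma adjusted p of 0.0415. That difference was the lowest of the complex. The common one, 5909 bases upstream, had 82.5 and 92.8 in deeper A and B (labelled shG8d), against 62.8 and 49.2 in shallower A and B, a log2 difference of 0.64 (limma adjusted p = 0.0644) that did not pass. It passed in a fit within the common set (adjusted p = 0.0463) and without shallower A (0.82, adjusted p = 0.00988). The first did not pass without deeper A, deeper B or shallower A (adjusted p of 0.127, 0.309 and 0.0854), nor in a fit within the specific sets (0.0683). SPRR2 genes are near-identical copies, and how reads that match several of them were placed is not given in the sources used here, so the assignment to 1 copy is uncertain.

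The promoter regions of 2 SPRR genes were weakly open in both pairs. SPRR1A, with the AP-1 match and TATA box printed above, had 23.6 and 20.2 normalized counts in deeper A and B (labelled shNC), against 27.8 and 25.8 in shallower A and B. SPRR2D had 30.3 and 38.7 in deeper A and B, against 26.6 and 29.3 in shallower A and B. Their log2 differences were −0.28 and 0.29, and neither passed. SPRR1B had 1 region, past its end, with 166 and 116 in deeper A and B, against 132 and 139 in shallower A and B. The 3 regions upstream of SPRR4 had log2 differences between −0.22 and 0.49. In these SPRR1B and SPRR4 regions the deeper pair was labelled shG8d.

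The LCE genes, which act late in envelope assembly, had no called region among 6 in limma, and 1, at LCE1E, had an unadjusted p under 0.05. The LCE1E promoter region, 76 bases upstream, had 43.8 and 46.8 normalized counts in deeper A and B (labelled shNC), against 21.7 and 31.6 in shallower A and B. The pairs did not overlap, but the log2 difference of 0.76 (SE 0.334) had a limma adjusted p of 0.103. LCE3E had 30.3 and 35.5 in deeper A and B, against 39.9 and 24.6 in shallower A and B at its promoter, LCE3D had 37.0 and 29.1 against 30.2 and 41.0, and LCE1B had 18.5 and 28.2 against 25.4 and 21.1. These 3 overlapped between the pairs, with log2 differences between −0.10 and 0.06. The deeper pair was labelled shG8d at LCE3D and shNC at LCE3E and LCE1B. The most open LCE region, 7928 bases upstream of LCE5A, had 104 and 82.3 in deeper A and B (labelled shG8d), against 70.1 and 92.6 in shallower A and B.

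The fused-type S100 genes had 13 regions, none of them within 1 kb of a start and none called in limma (1, at RPTN, had an unadjusted p under 0.05). The most open lay 8900 bases upstream of RPTN, which encodes the envelope protein repetin, with 107 and 121 normalized counts in deeper A and B (labelled shG8d), against 109 and 105 in shallower A and B. The most open specific region lay 32236 bases upstream of RPTN, with 32.0 and 39.5 in deeper A and B (labelled shNC), against 55.6 and 45.7 in shallower A and B. The log2 differences of the 5 RPTN regions lay between −0.54 and 0.84. TCHH, the trichohyalin gene of hair follicles, had an exonic region in which the deeper pair was labelled shG8d. That region had 38.7 and 34.7 in deeper A and B, against 77.3 and 42.2 in shallower A and B. Its log2 difference of −0.63 did not pass. Regions of CRNN (cornulin), HRNR (hornerin) and FLG2 (filaggrin-2) numbered 3, 2 and 2, with log2 differences between −0.74 and 0.17.

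Of the remaining genes, KPRP and SMCP had a called region each. KPRP, the keratinocyte proline-rich protein, had 5 regions, and the one 12421 bases upstream had 35.3 and 37.9 normalized counts in deeper A and B (labelled shG8d), against 74.9 and 62.1 in shallower A and B. It was lower in the deeper pair by a log2 difference of −0.88 with an SE of 0.279 and a limma adjusted p of 0.0285, with adjusted p of 0.163, 0.101 and 0.0798 without deeper A, deeper B and shallower A. A region next to it, 14354 bases upstream, had 108 and 90.4 in deeper A and B, against 83.4 and 78.5 in shallower A and B, with a log2 difference of 0.28 that did not pass. The KPRP promoter region, 952 bases upstream, had 47.1 and 32.3 in deeper A and B (labelled shNC), against 33.8 and 34.0 in shallower A and B. SMCP, a cysteine-rich protein of sperm mitochondria, had an shG8d-specific region 6929 bases upstream with 17.7 and 25.8 in deeper A and B (labelled shNC), against 37.5 and 57.4 in shallower A and B. Its log2 difference was −1.08 (SE 0.358, limma adjusted p = 0.0347), with adjusted p of 0.263, 0.0578 and 0.166 without deeper A, deeper B and shallower B, and 0.0534 in a fit within the specific sets. PGLYRP3, a peptidoglycan recognition protein, had 1 region with a log2 difference of 0.12.

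**Figure D4:**
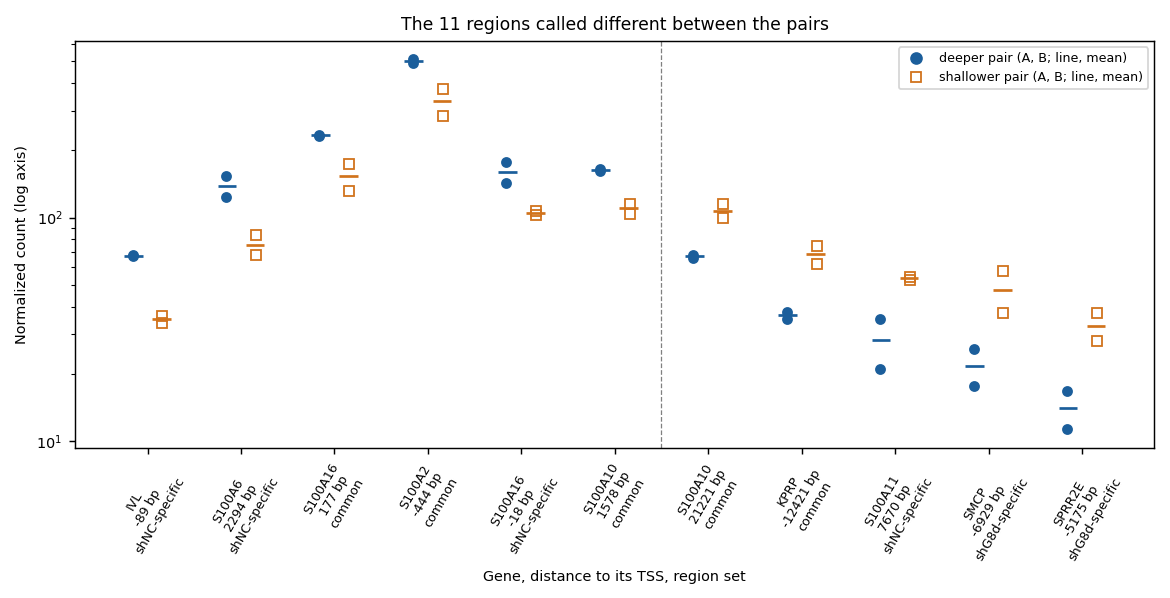
Normalized counts (log axis) of the 11 called regions in the 4 libraries, from the highest log2 difference to the lowest, with each pair's mean as a line; the dashed line parts the 6 regions higher in the deeper pair from the 5 lower in it. In all 11 the pairs do not overlap, but these regions were picked for their difference between the pairs, and 63.4% of all regions do not overlap either. In the deeper pair, by which the groups are defined, the 5 lower regions range over 11.3 to 68.2 and the 6 higher ones over 67.3 to 511. In the shallower pair they range over 28.1 to 115 and 33.8 to 376.

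Of the 6 higher calls 4 lay at starts, and all 5 lower calls lay away from them. Over all regions of the series, 2524 of 6477 higher calls lay in promoter regions, and 5725 of 7220 lower calls lay outside them. Of the 22 promoter regions 4 were higher in the deeper pair (all promoter regions, 19.4%) and 0 were lower (11.5%), and 18 were not called. Of the 57 other regions 2 were higher (8.76%) and 5 were lower (12.7%). Neither share was tested against the other. The median log2 difference was 0.23 over the promoter regions of the complex, against 0.12 over all promoter regions, and 0.03 over its other regions, against −0.05. All 7 shNC-specific S100 promoter regions had a log2 difference above 0, as did 2896 of all 3683 shNC-specific promoter regions.

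**Figure D5:**
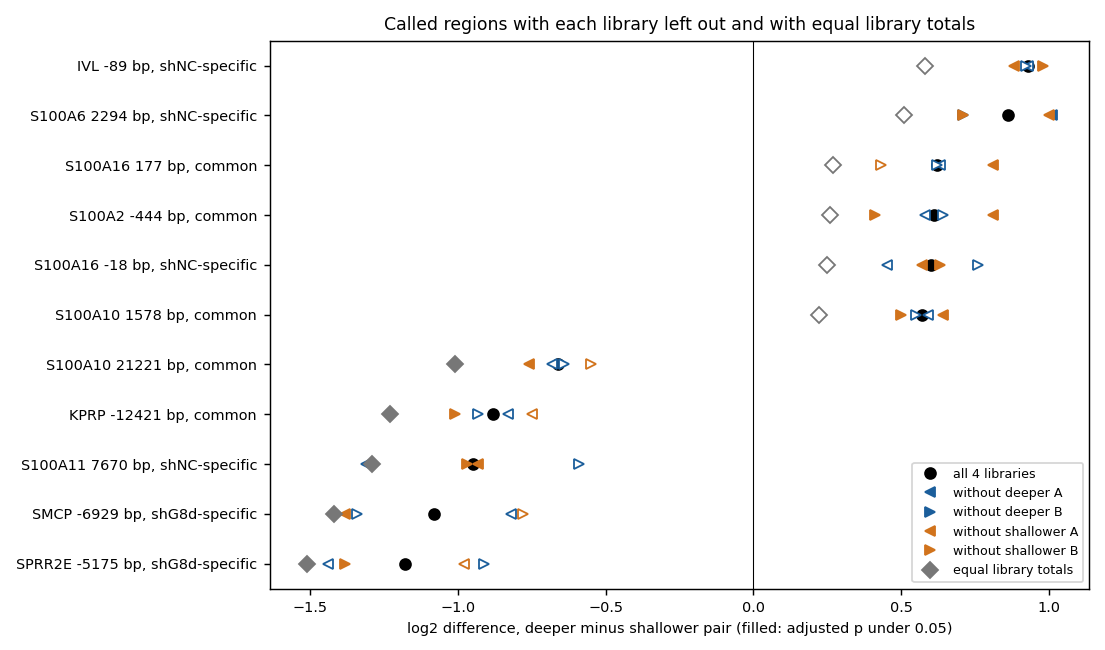
Log2 difference (deeper minus shallower pair) of the 11 called regions with all 4 libraries, with each library left out and with equal library totals; filled marks have a limma adjusted p under 0.05. No mark crosses 0, the marks without a deeper library are mostly open, and with equal totals the 6 higher regions are open and the 5 lower ones filled.

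Genes on either side of the complex and between its members had calls in both directions too. Of 28 such neighbours 15 had a promoter region, 3 of which were higher in the deeper pair (20.3% of all genes with a promoter region) and 2 lower (10.7%). THEM4, a thioesterase gene, had 160 and 167 normalized counts in deeper A and B (labelled shG8d), against 83.4 and 56.2 in shallower A and B, with a log2 difference of 1.24, an SE of 0.224 and a limma adjusted p of 0.000924. That was above every difference within the complex. INTS3 and TPM3 were also higher (0.67 and 0.60), and TUFT1 and OAZ3 lower (−0.65 and −0.79). The deeper pair was labelled shNC at TPM3 and shG8d at INTS3, TUFT1 and OAZ3.

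Squamous differentiation genes outside the complex, 63 in number, had a promoter region at 37. In limma, 6 of these promoter regions were higher in the deeper pair (20.3% of all genes) and 8 lower (10.7%). Of the 17 structural genes with a region 1 was higher and 4 lower, and of the 20 regulators 5 were higher and 4 lower. EVPL, the gene of envoplakin, which is cross-linked to involucrin, had 183 and 145 normalized counts in deeper A and B (labelled shG8d), against 105 and 45.7 in shallower A and B (log2 difference 1.22). GRHL2, a Grainyhead-like factor of epithelia, had 126 and 148 in deeper A and B (labelled shG8d), against 226 and 268 in shallower A and B (−0.84). So the pairs were ordered one way at an envelope gene and the other at an epithelial factor, in the same region set. Among common regions, ARNT had 130 and 159 in deeper A and B, against 78.5 and 80.8 in shallower A and B, and CEBPA had 157 and 144 against 106 and 46.9. KLF5 had 229 and 211 in deeper A and B, against 134 and 144 in shallower A and B. These 3 encode transcription factors, as does NFE2L2, with 108 and 110 in deeper A and B (labelled shNC), against 67.7 and 58.6 in shallower A and B. Lower in the deeper pair were SPINK5, a protease inhibitor gene of the skin barrier (18.5 and 16.1 against 38.7 and 41.0), and EHF, an epithelial ETS factor (44.6 and 52.5 against 67.7 and 123), both common. The desmosomal cadherin genes DSC2 (42.1 and 31.5 against 84.6 and 71.5) and DSC1 (10.1 and 12.9 against 37.5 and 28.1) and the chromatin organiser SATB1 (23.6 and 31.5 against 65.2 and 50.4) were lower in shG8d-specific regions. With equal library totals 2 were higher and 12 lower. Fewer of these genes were called without either deeper library, as was so over all regions. Over the 37 genes the median log2 difference was 0.09, against 0.14 over all genes with a promoter region.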

How the data were processed

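ATAC-seq was analysed in 4 MCF10A libraries, 2 per hairpin. The submitters' processing notes name CASAVA 1.4 and the build hg19. Which aligner, peak caller, counter and test made the table is not given in the sources used here. Per the file headers, the 1 table that the authors deposited gives a log10 normalized value per region and library, a log2 fold change, an unadjusted p-value, an annotation and a distance to the nearest TSS. Region starts and ends were not used here.

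Each log10 value was raised as a power of 10, giving the normalized count. These were whole multiples of 1 step per library in 100% of values (within 0.05 reads), so reads per region were recovered and libraries matched across region sets by step, 0.841564 and 0.806992 (deeper A and B) and 1.20807 and 1.17163 (shallower A and B). A region without reads could hold up to 3, which is 2.52 and 2.42 normalized counts in deeper A and B and 3.62 and 3.51 in shallower A and B. Median reads per region were 65 and 68 in deeper A and B, and 48 and 49 in shallower A and B. Floors and intervals cover counting error only.

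Because the deposited unit is a log scale, log2(normalized count + 1) was fitted over all 58127 regions with limma (version 3.58.1, R 4.3.3, trend on), and p-values were adjusted by Benjamini-Hochberg and called under 0.05. Adding 1 understates the change of low regions. A filter of 10 normalized counts in 2 libraries removed 0 regions, and all 79 members passed it. The script was tested on simulated data. Alternatives were pseudocount 10, no filter, a mean of at least 50 and equal library totals. Further alternatives were the letters A and B as a block, and leaving out each library. The last was a fit within the common set and a fit within the specific sets together. A fit without 1 library assumes that the lone library of its pair varies like the complete pair.

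A promoter region is annotated as promoter or lies within 1 kb of a TSS; for genes outside the complex the region of highest mean per gene was used. Named were all called member regions, all member promoter regions, the most open region of each gene group in the common and in the specific sets, the genes with most regions, and up to 6 called squamous genes in each direction. The values of 1 of these genes are not reported here. The other members, the marker genes and the neighbouring genes were named after their values were seen. Members and lists were chosen with earlier results of these data known.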

Additional observations from a re-analysis of the deposited data

How the results depend on the processing

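Signs held at the 11 called regions under every alternative that tested them, but these regions were picked for their difference in the same data. Of all 79 members, 27 changed sign with equal library totals. Without deeper A and deeper B 13 and 11 did, and without shallower A and shallower B 12 and 11 did. All 11 calls were kept with pseudocount 10, with no filter and with the letters A and B as a replicate block, which gave 4 higher calls in the specific sets against 3, by adding the S100A6 promoter, and changed no other count. The deviations of deeper A and shallower A from their pair means were not correlated over regions (−0.00393). This cannot settle whether the letters pair the libraries, since counting error is part of each deviation. With a mean of at least 50, 8 regions could be tested and kept their calls; the specific sets then had 0 lower calls (limma; 12 members had an unadjusted p under 0.05), and squamous genes 5 lower. The fits within the common set and within the specific sets together kept 7 calls and gave 4 higher calls in common regions, against 3. They gave 0 lower calls in the specific sets (limma; 18 members had an unadjusted p under 0.05). Equal library totals gave 0 higher and 9 lower calls in common regions and 0 higher and 7 lower in the specific sets (21 members had an unadjusted p under 0.05), and 2 higher and 12 lower squamous genes, against 6 and 8. Taking the most open region of any annotation gave 13 higher and 8 lower squamous genes. That rule also takes in genes without a promoter region, and no share over all genes was computed for it. These counts are therefore not comparable with the 6 and 8. The cause of these changes was not tested.

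With 1 library left out, the median log2 difference over the complex was 0.07 without deeper A and 0.11 without deeper B. It was 0.11 without shallower A and 0.06 without shallower B. Over all regions it was −0.01, −0.01, −0.03 and −0.02 in the same order. Calls in the complex, among squamous genes and over all regions were fewer without either deeper library. Reads per library in regions of the complex ranged from 12 to 607, which limits the precision of the weakly open ones.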
